A study of Mus musculus with 13 samples.

Results

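The chromatin of 10 T cell receptor and coreceptor genes was examined in 4 mouse leukaemia cell lines: Cd3e, Cd3d, Cd3g, Lck, Cd4, Cd8a, Cd8b1, Ptcra, Rag1 and Rag2. The genes were taken by position, as every listed peak that overlapped 1 of 6 windows of genome build mm9. The windows span 292 kb in all, on chromosome 9 from 44770000 to 44830000 (Cd3e, Cd3d and Cd3g), chromosome 4 from 129220000 to 129256000 (Lck), chromosome 6 from 124810000 to 124845000 (Cd4) and from 71265000 to 71335000 (Cd8b1 and Cd8a), chromosome 17 from 46885000 to 46906000 (Ptcra) and chromosome 2 from 101450000 to 101520000 (Rag1 and Rag2). They held 111 of the 109165 peaks in the 9 lists of the series for the histone marks H3K4me3 and H3K27me3 and for the NUP98-PHF23 fusion protein (NP23).

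The lists come from chromatin immunoprecipitation followed by sequencing. Lines 748T and 106A are lymphoblasts from NP23 pre-T LBL of separate C57BL/6 mice, and 961C is a myeloblast line from an NP23 AML, also C57BL/6. The control line without the fusion, labelled 7298/2 and called the SCL-LMO1 line here, is a lymphoblast line from an SCL-LMO1 pre-T LBL on a C57BL/6+C3H hybrid background, so oncogene and strain differ together. All 4 lines grow without added cytokine. Each line is derived from 1 mouse and has 1 list per mark, and NP23, carrying a V5 tag, has a list for 961C alone. No group therefore has more than 2 lines, no difference between groups was tested, and each line's own value is given. An mm9 gene annotation was not used here, so which peak lies at which start site within a window was not analysed.

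H3K4me3 marks the promoters of active genes and spreads broadly over genes that define a cell's identity, while H3K27me3 is set by Polycomb and accompanies silenced genes. The T cell receptor signals through the CD3 chains, CD4 and CD8 bind the molecules that present antigen and bring the kinase Lck to the receptor, pre-T alpha stands in for the alpha chain in immature thymocytes, and the RAG proteins cut the receptor genes for rearrangement. Thymocytes start with neither coreceptor, then carry both, then keep one. Read heights are maxima of the read pileup as listed by the authors and are not scaled to depth. Where reads of several lines are given side by side, they describe each line and do not measure a difference. Between lines, only the rank of a peak within its own list is compared.

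H3K4me3 was listed in 6 windows in 748T, 6 in 106A, 5 in the SCL-LMO1 line and 4 in 961C, where it covered the fewest bases. H3K4me3 covered 38.9 kb of the 6 windows in 748T, 42.7 kb in 106A, 42.6 kb in the SCL-LMO1 line and 8.82 kb in 961C. The SCL-LMO1 line thus fell between the NP23 pre-T lines, and 961C lay below all 3. The whole lists differed little in this respect, covering 20.4 Mb, 21.3 Mb, 21.9 Mb and 21.9 Mb of the genome in the same order. Peaks in the windows numbered 27, 22, 26 and 11. Coverage follows both the share of cells with the mark and its level in each cell, which cannot be told apart in bulk chromatin.

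**Figure D1:**
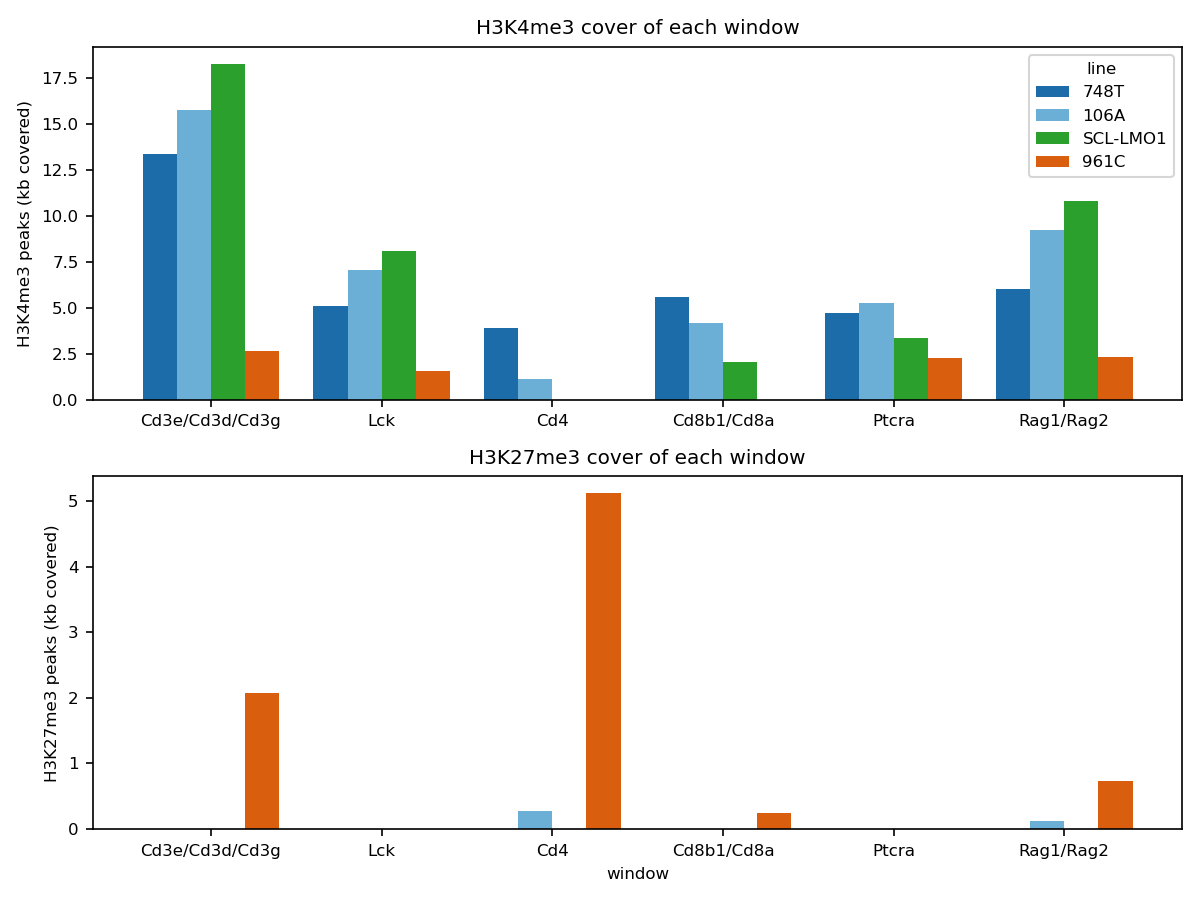
Kilobases of each window covered by listed peaks, with H3K4me3 in the upper panel and H3K27me3 in the lower one; each bar is 1 line with 1 library, so there are no error bars. H3K4me3 cover of 961C is below that of every pre-T line except in the Cd4 window, where the SCL-LMO1 line also has none, and H3K27me3 of 961C reaches 5.12 kb in the Cd4 window.

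The Cd3e, Cd3d and Cd3g window held the widest H3K4me3 of the group. These genes encode the epsilon, delta and gamma chains of CD3, which carry the receptor's signal into the cell. RefSeq (GRCm38.p6) lists them in the order Cd3g, Cd3d, Cd3e, between Ube4a and Mpzl2. A region on chromosome 9 from 44784378 to 44794724 was covered over 8157 bp in 748T, 9162 bp in 106A and 10270 bp in the SCL-LMO1 line, and over 770 bp in 961C. In the SCL-LMO1 line it was 1 unbroken peak, the 8th widest of 17616 in its list. In 748T the widest peak here was 5771 bp, at rank 38 of 17544.

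A further region, from 44814844 to 44820544, was covered over 4111 bp in 748T, 5358 bp in 106A and 5275 bp in the SCL-LMO1 line, and held no listed peak in 961C. Its tallest points were 114, 125 and 113 reads in these lines. The 106A part was 1 peak, at width rank 98 of 16324. The SCL-LMO1 line alone had H3K4me3 from 44807223 to 44808800, with a maximum of 45 reads. The low end of the window differed from the rest: the region from 44772744 to 44774258 was listed in all 4 lines, over 1149 bp, 1314 bp, 1139 bp and, in 961C, 1460 bp. It held the tallest peak of the window in every line, at 130, 133 and 135 reads in the pre-T lines and 69 reads in 961C, where it was higher than 78.5% of the list.

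The RefSeq promoters of the 3 CD3 genes are shown because the broadest H3K4me3 of the set lies in their window. Each runs from 250 bases before the start to 50 after it on build GRCm38.p6, a different build from the peaks, and was not placed against them. Capitals mark matches to CAGNTG on either strand (read as CAGNTG or CANCTG), the core that E proteins prefer. The entries are Cd3g (chr9:44980382-44980681, minus strand), Cd3d (chr9:44981536-44981835, plus strand) and Cd3e (chr9:45009562-45009861, minus strand).
Cd3g: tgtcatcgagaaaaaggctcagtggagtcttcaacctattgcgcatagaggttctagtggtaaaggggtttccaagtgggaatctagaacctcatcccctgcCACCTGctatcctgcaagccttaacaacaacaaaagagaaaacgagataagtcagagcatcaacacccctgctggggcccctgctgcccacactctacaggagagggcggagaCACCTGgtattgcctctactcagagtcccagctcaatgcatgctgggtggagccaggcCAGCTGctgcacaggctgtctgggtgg
Cd3d: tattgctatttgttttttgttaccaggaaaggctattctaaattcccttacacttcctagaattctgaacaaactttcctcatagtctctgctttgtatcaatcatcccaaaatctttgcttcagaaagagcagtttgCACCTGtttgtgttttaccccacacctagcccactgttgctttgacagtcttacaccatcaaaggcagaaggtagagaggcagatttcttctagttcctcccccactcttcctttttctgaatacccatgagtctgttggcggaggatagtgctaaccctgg
Cd3e: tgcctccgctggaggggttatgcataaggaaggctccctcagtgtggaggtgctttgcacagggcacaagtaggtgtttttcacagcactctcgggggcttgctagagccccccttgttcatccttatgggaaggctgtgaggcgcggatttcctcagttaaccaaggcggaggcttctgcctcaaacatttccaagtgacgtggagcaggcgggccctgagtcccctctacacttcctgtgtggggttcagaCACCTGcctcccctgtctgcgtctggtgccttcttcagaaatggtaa
Cd3g has 3 matches, Cd3d 1 and Cd3e 1, and the counts of CG dinucleotides are 4, 1 and 8 against a median of 7 over all 32851 RefSeq promoters in the table.

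Lck, the kinase that phosphorylates the CD3 chains, showed the same contrast in a narrower form. The region on chromosome 4 from 129233484 to 129236633 was covered over 2786 bp in 748T, 2800 bp in 106A, 3092 bp in the SCL-LMO1 line and 865 bp in 961C. Its maxima were 104, 117, 104 and 26 reads. The last of these was higher than 39.2% of the 961C list, and the pre-T maxima were higher than 61.0% to 64.3% of theirs. A region from 129248681 to 129251848 was covered over 1465 bp, 3168 bp and 2361 bp in the 3 pre-T lines and was not listed in 961C. The 106A peak there reached 138 reads, higher than 77.2% of its list, against 79 reads (51.4%) in 748T and 63 reads (44.8%) in the SCL-LMO1 line.

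Smaller peaks set the pre-T lines apart at Lck. The region from 129252026 to 129252627 was listed in all 3, and the one from 129252861 to 129253042 in 748T and the SCL-LMO1 line. Peaks from 129237215 to 129238169 and from 129238485 to 129239078 were found in the SCL-LMO1 line alone. At the low limit of the window, the region from 129218834 to 129220714 was present in every line and reached 134, 133 and 126 reads in the pre-T lines and 69 reads in 961C. RefSeq lists Hdac1, a histone deacetylase gene, before Lck and Fam167b after it in order of position. No H3K27me3 peak of any line fell in the Lck window.

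**Figure D2:**
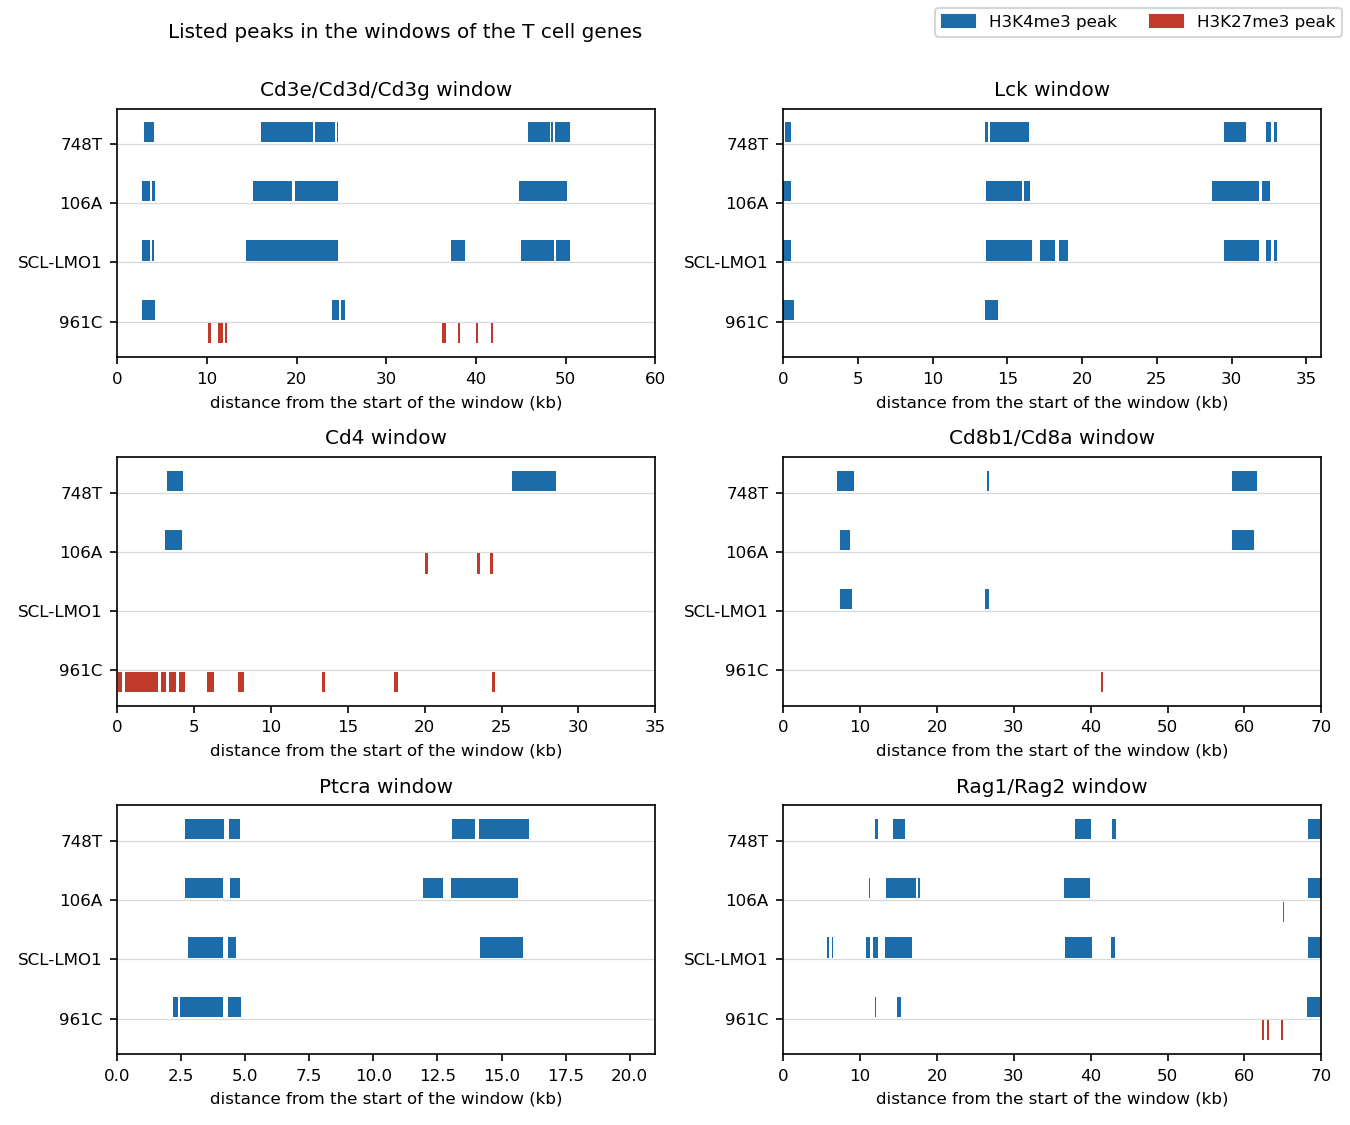
Listed peaks in the 6 windows by line, with H3K4me3 in blue above each line's axis and H3K27me3 in red below it, against the distance in kb from the start of the window. Peaks are drawn to scale, but at least 0.2 kb wide, and are cut at the window limits. Blue bars lie mostly in the pre-T rows, and 961C has 11 of them in 4 windows. Red bars lie in the 961C row and in 4 places of the 106A row, and the Cd4 row of the SCL-LMO1 line is empty.

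The coreceptor windows differed between the pre-T lines, as each of the other windows did in some of its regions. The window of Cd4, the coreceptor of helper T cells, had 2 H3K4me3 peaks in 748T, 1 in 106A, 0 in the SCL-LMO1 line and 0 in 961C. The peak shared by the NP23 lines, on chromosome 6 from 124813103 to 124814256, was 1046 bp wide in 748T and 1134 bp in 106A, with maxima of 60 and 62 reads. The peak of 748T alone, from 124835689 to 124838571, was 2883 bp wide with a maximum of 82 reads, at width rank 698 of 17544. The NP23 lines thus shared 1 of the 2 regions of the Cd4 window, and the control had neither. The shared region lay 3.10 kb from the low limit of the window, and the region of 748T alone 6.43 kb from the high limit. RefSeq lists Gpr162 before Cd4 and Lag3 after it in order of position, and which gene the shared region belongs to was not analysed.

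In the Cd4 window 106A also had short H3K27me3 peaks. They numbered 3, were 90 to 92 bp wide, and lay at 124829990, 124833404 and 124834236. Their maxima were 13, 11 and 11 reads against a median of 10 in that list. They were wider than only 4.16% to 5.50% of its peaks, which had a median width of 216 bp. As many or more were found in 0.630% of 35-kb stretches of the genome. Neither 748T nor the SCL-LMO1 line had an H3K27me3 peak in the Cd4 window.

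Cd8b1 and Cd8a encode the chains of the CD8 coreceptor of cytotoxic T cells, and RefSeq lists them in that order between Gm1070 and Rmnd5a. The region on chromosome 6 from 71272032 to 71274166 was common to the pre-T lines, over 2135 bp in 748T, 1377 bp in 106A and 1574 bp in the SCL-LMO1 line, with maxima of 92, 76 and 103 reads. The region from 71323320 to 71326574 was instead listed in both NP23 lines and not in the control. It was 3255 bp wide in 748T and 2825 bp in 106A, with maxima of 98 and 94 reads, higher than 60.6% and 48.3% of the peaks in their lists. A short peak near 71291318, of 16 reads in 748T and 32 reads in the SCL-LMO1 line, was not listed in 106A. No H3K4me3 peak of 961C fell in this window.

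Regions listed in both NP23 pre-T lines but in neither the SCL-LMO1 line nor 961C made up 2 of the 31 merged H3K4me3 regions of the windows, and 1.92% of the 25059 regions of the genome. They were the region at 124813103, near the low limit of the Cd4 window, and the region at 71323320 in the Cd8b1 and Cd8a window. With 1 control line of another strain, the fusion, the strain and the stage of the tumour cells cannot be told apart. The RefSeq promoter of Cd8a (chr6:71373177-71373476, plus strand, GRCm38.p6) is given because this gene's window holds the wider of the pair, with CAGNTG matches on either strand again in capitals.
Cd8a: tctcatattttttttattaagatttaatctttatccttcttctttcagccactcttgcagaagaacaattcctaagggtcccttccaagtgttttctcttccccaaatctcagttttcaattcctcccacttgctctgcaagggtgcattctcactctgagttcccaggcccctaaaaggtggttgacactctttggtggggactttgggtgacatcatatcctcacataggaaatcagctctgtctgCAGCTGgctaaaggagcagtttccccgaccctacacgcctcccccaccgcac
It has 1 match and 3 CG dinucleotides.

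Ptcra encodes pre-T alpha, which pairs with the beta chain before the alpha chain is made. The region on chromosome 17 from 46898013 to 46901052 was covered over 2809 bp in 748T, 2628 bp in 106A and 1688 bp in the SCL-LMO1 line and was not listed in 961C. Its maxima were 90, 89 and 35 reads. The SCL-LMO1 peak was higher than 31.7% of its list, against 56.3% and 46.1% for the NP23 lines, so it was the lowest of these lines by rank. The line 106A had a further peak from 46896951 to 46897713, of 21 reads.

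Nearer the low limit of the Ptcra window the AML line also had H3K4me3. A peak of 101 bp and 12 reads at 46887189 was listed in 961C alone. From 46887469 to 46889152 the 4 lines had 1515 bp, 1487 bp, 1352 bp and, in 961C, 1672 bp, with maxima of 120, 112, 127 and 70 reads. From 46889337 to 46889827 they had 429 bp, 394 bp, 304 bp and 491 bp. The shared regions lie within 4.34 kb of the low limit of the window, and RefSeq lists Cnpy3 before Ptcra in order of position. The promoter of Ptcra (chr17:46763663-46763962, minus strand, GRCm38.p6) is shown for its 3 CAGNTG matches and its single CG dinucleotide.
Ptcra: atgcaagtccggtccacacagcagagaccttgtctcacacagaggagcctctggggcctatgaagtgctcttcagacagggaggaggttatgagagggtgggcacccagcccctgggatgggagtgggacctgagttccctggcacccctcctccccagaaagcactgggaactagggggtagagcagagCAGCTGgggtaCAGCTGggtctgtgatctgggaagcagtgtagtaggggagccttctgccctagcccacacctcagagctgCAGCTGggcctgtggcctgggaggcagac
As few CG dinucleotides or fewer were found in 14.1% of all promoters. Neither trait was particular to Ptcra: the promoters of Cd3g and Rag1 also held 3 matches, and that of Cd3d also held 1 CG dinucleotide.

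Rag1 and Rag2 encode the recombinase that joins receptor gene segments in developing lymphocytes. The region on chromosome 2 from 101486557 to 101490186 was covered over 2082 bp in 748T, 3313 bp in 106A and 3480 bp in the SCL-LMO1 line, with maxima of 71, 91 and 78 reads, and held no peak of 961C. The region from 101463208 to 101467298 was covered over 1549 bp, 3908 bp and 3516 bp in the pre-T lines and over 520 bp in 961C, where it reached 21 reads. A short 961C peak of 103 bp and 11 reads lay nearby, at 101461942. The AML line thus had a small amount of listed H3K4me3 in this part of the window, and the taller of these peaks was higher than 33.3% of its list.

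The pre-T lines differed in the fringe of the Rag1 and Rag2 peaks. The SCL-LMO1 line had 8 H3K4me3 peaks in the window, with 2 that were its own (at 101455713 and 101456323, of 17 and 21 reads), and 748T and 106A had 5 each. Over the window, cover was 6.01 kb in 748T, 9.23 kb in 106A, 10.8 kb in the SCL-LMO1 line and 2.31 kb in 961C. Of the 961C value, 1688 bp came from a peak at the high limit, from 101518152 to 101519839. That region was listed in all 4 lines, with maxima of 128, 144, 129 and 87 reads. RefSeq lists Iftap before Rag2 and Traf6, a signalling adaptor gene, after Rag1.

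When overlapping peaks were merged over the lines, H3K4me3 of the windows formed 31 regions, of which 20 were not listed in 961C, against 37.0% of all 25059. The pattern of all 3 pre-T lines without 961C was found in 6 of 31, in 5 of the 6 windows, while 5.72% of all 25059 regions had it. It was absent from the Cd4 window. The 6 became 3 when only the taller 50% of each list was kept and 10 when 106A was left out. Regions of all 4 lines were 8 of 31, against 37.8% of the genome. Regions of 1 line were 5 of 31 for the SCL-LMO1 line (10.3% of the genome) and 2 for 961C (17.7%). There were 2 for 106A (5.84%) and 1 for 748T (6.92%), the wide peak in the Cd4 window.

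**Figure D3:**
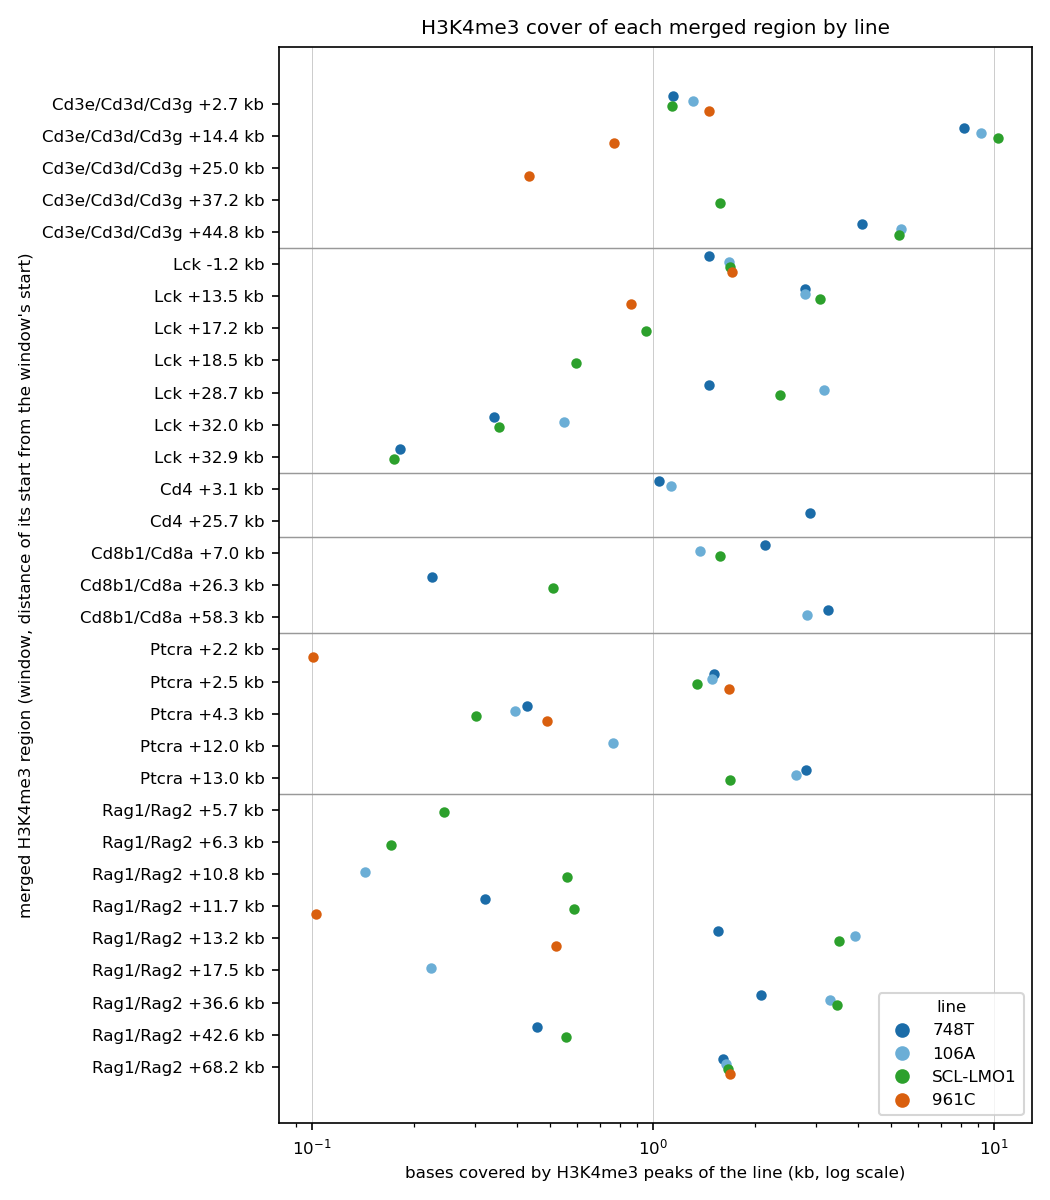
Kilobases covered by H3K4me3 peaks of each line, on a log axis, in each of the 31 merged regions, labelled by window and by the distance of the region's start from the start of the window; a line without a point had no listed peak in that region. Orange points of 961C stand right of the other lines in 5 regions of all 4 lines, and well to the left of them in 3, the widest of which, in the CD3 window, has 770 bp in 961C and 8157 bp or more elsewhere.

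The 8 regions of all 4 lines were of 2 kinds. In 5 of them 961C covered at least as much as the lowest pre-T line, from 105% at the high limit of the Rag1 and Rag2 window to 162% at Ptcra. In the other 3 it covered 9.44% (CD3 genes), 31.0% (Lck) and 33.6% (Rag1 and Rag2) of the lowest pre-T line. Over all 9463 such regions of the genome the median was 117%, and 3.13% lay under 50%. The 5 regions with full cover in 961C all lay within 4.34 kb of a window limit, and narrowing each window by 5 kb at both ends lowered the cover of 961C from 8818 bp to 2691 bp. The 3 with reduced cover lay 13.2 kb to 14.4 kb inside. Heights moved the same way: 961C reached 69 to 87 reads at 4 of the outer regions and 18 reads at the short one at Ptcra, and 21 to 29 reads at the inner ones, in a list with a median of 38.

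**Figure D4:**
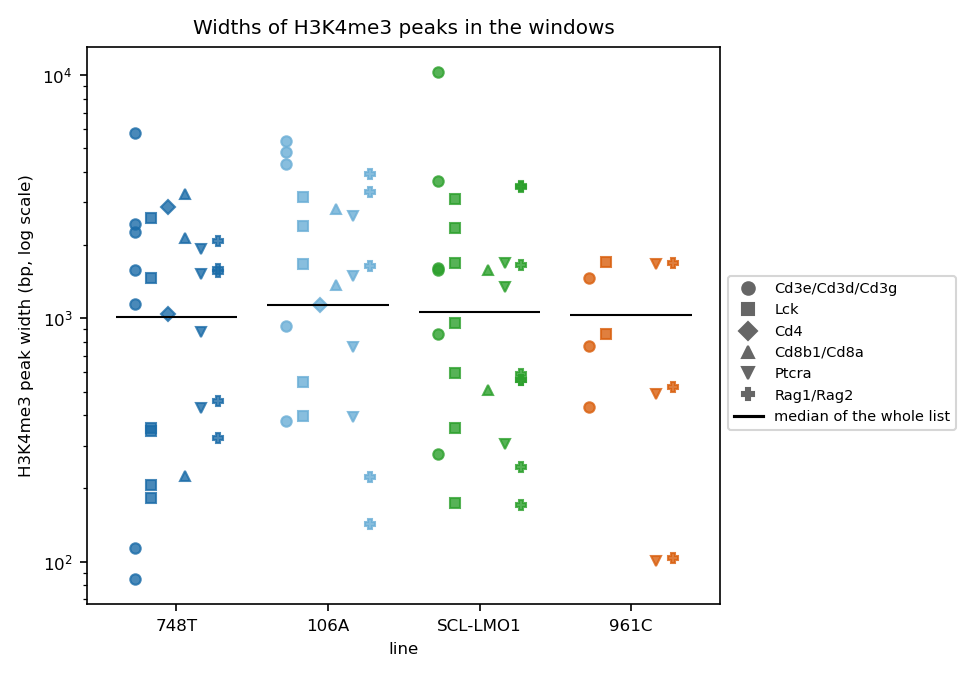
Widths of the H3K4me3 peaks in the windows, in bp on a log axis, by line, with 1 point per peak, the window given by the shape, and a black bar at the median width of the line's whole list. The SCL-LMO1 peak of 10270 bp is the widest, and no 961C peak in the windows is wider than 1706 bp.

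H3K27me3 lay in these windows mainly in the AML line. Listed peaks numbered 21 in 961C, 4 in 106A, 0 in 748T and 0 in the SCL-LMO1 line. The 961C list is also the longest, with 19469 peaks against 8412, 5600 and 4875. Cutting the lists to equal length by height kept 4875 of the 19469 peaks of 961C, and 8 of the 21. The 106A list, of 5600 peaks, was shortened far less. All 4 of its peaks were higher than at least 55.0% of that list, so this cut could not remove them. The 8 of 961C were 5 in the Cd4 window, 2 in the CD3 window and 1 in the Rag1 and Rag2 window. Merged over the lines, 20 of 24 H3K27me3 regions were listed in 961C alone, against 49.3% of all 34848.

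The Cd4 window carried the most, with 10 peaks of 961C over 5.12 kb, or 14.6% of its length. As many peaks or more were found in 0.368% of 35-kb stretches of the genome. The widest, from 124810543 to 124812682, was 2140 bp wide, at rank 342 of 19469, with a maximum of 17 reads. The peaks from 124810041 to 124814438, the widest among them, all started within 4.01 kb of the low limit of the window. Narrowing each window by 5 kb at both ends lowered the H3K27me3 peaks of 961C in the 6 windows from 21 to 16. The 10 maxima ran from 11 to 17 reads, around the list's median of 12. Of these peaks, 3 overlapped the H3K4me3 region that the NP23 pre-T lines have at 124813103: those starting at 124812854, 124813379 and 124814013. The one at 124812854 overlapped the H3K4me3 peak of 106A and not that of 748T, and the others overlapped both.

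In the CD3 window the 7 H3K27me3 peaks of 961C formed a group of 3 from 44780085 to 44782242 and a group of 4 from 44806247 to 44811907. As many or more were found in 1.79% of 60-kb stretches of the genome. Both lay beside the wide H3K4me3 regions of the pre-T lines and not in them. The tallest, at 44806247, reached 20 reads, higher than 93.8% of its list. Another, at 44807987, fell in the H3K4me3 peak found in the SCL-LMO1 line alone. In all, 4 of 21 H3K27me3 peaks of 961C overlapped H3K4me3 of a pre-T line, against 6.83% of its whole list. Of these, 3 lay on the same region of the Cd4 window. H3K4me3 covered 13.3% to 14.6% of the windows in the pre-T lines, and the share of the whole list was not matched for such cover. Of the 21, 0 overlapped H3K4me3 of 961C itself, against 2.06% of the list, so that 0 is near the background.

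The Rag1 and Rag2 window held 3 H3K27me3 peaks of 961C between 101512271 and 101515078, and 6.04% of 70-kb stretches held as many or more. The line 106A had 1 of 120 bp inside the last of them, and 7.59% of 70-kb stretches held 1 or more of its peaks. The region from 101514791 to 101515078 was the only H3K27me3 region of the windows listed in both lines. The Cd8b1 and Cd8a window held 1 short peak of 10 reads in 961C, at 71306314, higher than 8.59% of its list, and 13.9% of 70-kb stretches held 1 or more. The Lck and Ptcra windows held none in any line. In 961C, where H3K4me3 cover was lower than in most pre-T lines in every window, H3K27me3 was thus listed in 4 windows, in the CD8 window as that single short peak, and not in the Lck or Ptcra windows.

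The NP23 fusion was not listed in any of these windows in 961C. The 6 windows held 0 of its 1629 peaks, and 2.69% of 60-kb stretches of the genome held 1 or more, so a count of 0 in 6 windows is near the background. The nearest NP23 peak was 87.0 kb from the Cd4 window, at 124722849, and was 130 bp wide. For the other windows the nearest lay 484 kb to 1145 kb away. NP23 peaks of 500 bp or more were 656 kb from the Lck window and at least 5379 kb from the others. Since NP23 has a list for 961C alone, the pre-T lines have no value to set beside these.

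The second height that each list gives, is read here as background because its values are low, although the lists do not name it. Over H3K4me3 peaks its median was 0.243 reads in 748T, 1.55 in 106A, 1.26 in the SCL-LMO1 line and 0.231 in 961C, against 0.197, 1.46, 1.07 and 0.264 over the whole lists. Over the H3K27me3 peaks of 961C it was 0.315 in the windows and 0.130 in the list. The highest value at any peak of the windows was 2.49 reads.

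RefSeq promoters were found for 8 of the 10 genes, with 9 entries because Lck has 2. Those of Cd4 and Cd8b1 were not used here. All 9 held CAGNTG on either strand, 2 held TGTGGT or its reverse complement ACCACA, the RUNX core, and 5 held CAGGAA or TTCCTG, an ETS core. Of all promoters of this length, 51.4%, 16.8% and 30.6% held them. A match is not a binding site. The members had 1 to 8 CG dinucleotides, with a median of 3 against 7, and 8 of the 9 were at or below the overall median.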

How the data were processed

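Each of the 9 lists deposited by the authors holds peaks of 1 library on mm9, with start, end and a text field giving the mean and maximum read pileup and the same for a second, unexplained track. CASAVA 1.9 and BWA 0.5.9-r26 were used, per the submitters' processing notes, while no source used here names the peak caller or its threshold. Read totals were not used here, so the depth per library is unknown. The 4 input samples were not analysed here.

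The genes and windows were chosen with earlier results of these data known, as were the comparisons. A peak was placed in a window by an overlap of 1 bp. Overlapping peaks of the 4 lines were merged into regions, and the same counts were made over the genome, also in consecutive stretches of a window's length up to the furthest listed peak. The limit of 50% for reduced cover and the lengths of these stretches were chosen after the values were seen. All peaks of the windows were counted, and those named are the tallest, the widest and those that differ between lines. Ranks are within a list. No test between groups was made, since no group has over 2 lines. Other T cell genes and markers of other lineages were not located, because the gene table is for GRCm38.p6. It served for gene order, and its promoters for sequence. Merging was tested on simulated data. Computations used Python 3.11.15, numpy 2.4.6 and matplotlib 3.10.9.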

Additional observations from a re-analysis of the deposited data

How the results depend on the processing

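Of 86 values recomputed under other settings, 66 stayed within 1.5 times the reported one. Some of these could not move. A count of 0 cannot change where a setting only removes peaks, and a cut to equal length leaves the shortest list as it was. Keeping the taller 50% of each list left H3K4me3 peaks of 11 in 748T, 9 in 106A, 11 in the SCL-LMO1 line and 4 in 961C, cover of 24704 bp in 106A and 5535 bp in 961C, 3 regions of all 3 pre-T lines without 961C, 13 H3K27me3 peaks of 961C and 12 H3K27me3 regions of 961C alone. Lists of equal length gave 8 and 8 for these H3K27me3 values. Windows narrowed by 5 kb gave 14 H3K4me3 peaks in 106A, and 5 peaks and 2691 bp in 961C. Windows widened by 10 kb gave 1 H3K27me3 peak in 748T, 35 peaks and 33 private regions in 961C, and 1 window with no H3K4me3 in 961C in place of 2. Joining peaks within 1 kb gave 12 H3K27me3 regions of 961C alone.

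Leaving out each NP23 pre-T line gave 7 to 10 H3K4me3 regions in the remaining pre-T lines without 961C, and 20 to 21 H3K27me3 regions of 961C alone. The line 961C had the least H3K4me3 cover with windows narrowed or widened and with 50% of a peak required inside. The same held with the taller 50% kept and with equal lists. NP23 had 0 peaks also in windows widened by 10 kb. The other settings can only remove peaks or leave the single NP23 list as it was, so they could not change its 0. No paired analysis was possible because no result comes from a test. A peak below the authors' unknown threshold is not listed, so an empty window does not show that a mark is absent.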

Other observations

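The line 961C also had H3K27me3 peaks beyond the limits of the Cd4 and CD3 windows. In the 10 kb below the Cd4 window 961C had 8 further H3K27me3 peaks, from 124800611 to 124809661, with maxima of 10 to 16 reads. In the same stretch 748T had 1, at 124802836, and both NP23 pre-T lines had an H3K4me3 peak, of 29 reads in 748T (at 124807006) and 21 reads in 106A (at 124806965). The SCL-LMO1 line had neither mark there. In the 10 kb above the CD3 window 961C had 6 H3K27me3 peaks, from 44832142 to 44838345, with maxima of 11 to 15 reads. No other line had that mark there. These peaks stood apart from those in the window, the last of which ended at 44811907, 18.1 kb before the limit.

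Above the Ptcra window a H3K4me3 peak was listed in all 4 lines within 10 kb, with 135 reads in 748T, 132 in 106A, 137 in the SCL-LMO1 line and 86 in 961C.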
